A study of Mus musculus with 8 samples.

Results

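The 8 genes described here, Mtor, Rptor, Rictor, Tsc1, Tsc2, Akt1, Akt2 and Rheb, encode the core of the Akt and mTOR pathway, and were taken by name. They are 8 of the 11315 genes in the RNA tables, and 568 of the 1497075 CpG sites read for 5-hydroxymethylcytosine (5hmC), counted by strand, are assigned to them as promoter, exon or intron. Mtor encodes the kinase at the heart of 2 complexes, mTORC1, which it forms with Raptor (Rptor), and mTORC2, which it forms with Rictor. Akt1 and Akt2 are kinases that phosphorylate and restrain tuberin (Tsc2). Tuberin works with hamartin (Tsc1) as a brake on the small GTPase Rheb, which in turn activates mTORC1. In the oligodendrocyte lineage this pathway is known to drive the protein and lipid synthesis that myelin requires.

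The study compared adult oligodendrocyte progenitors (aOPCs) with adult oligodendrocytes (aOLs) sorted by flow cytometry from the brains of C57BL/6 mice at postnatal day 60, to relate 5hmC to gene expression. The aOPCs were GFP-positive cells of a Pdgfra reporter line, in which EGFP is fused to histone H2B, and the aOLs were GFP-positive cells of a Plp reporter line, so each population comes from a line of its own and population and line cannot be told apart. RNA and 5hmC were each measured in 2 libraries per population, numbered 2 and 3 by the submitters, 8 libraries in all. The tissue label of the aOL libraries for 5hmC names the Pdgfra reporter, and they were grouped by their titles, which name Plp. The titles of the aOL RNA libraries describe pre-myelinating cells and their protocol myelinating ones. No label says how many animals a library holds, so the p-values measure the spread between these libraries only.

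The RNA libraries were checked against marker genes. Pdgfra, the receptor that defines progenitors, was at 7.54 and 5.47 in aOPCs against 4.98 and 1.63 in aOLs, on the log2 scale on which the median gene was at 10.57. Of 7 measured progenitor markers 3 were lower in both aOL libraries than in both aOPC libraries, 0 were higher and 4 overlapped. The 8 oligodendrocyte markers had a summed log2 level of 22.4 to 22.6 in all 4 libraries. The aOPC libraries thus held these oligodendrocyte markers at the level of the aOL libraries. The summed log2 level of the 7 measured progenitor markers was 13.15 in aOPC replicate 2 but 9.61 in aOPC replicate 3, below the 10.59 and 10.87 of the aOL libraries. The summed log2 levels ran from 13.42 to 13.82 for 8 astrocyte markers, 10.22 to 11.40 for 7 microglial and 11.66 to 12.45 for 5 neuronal ones. Single markers in these lists were on balance lower in aOLs, with a median log2 difference of -0.68 for astrocytes (3 of 8 lower and 1 higher without overlap), -0.54 for microglia (2 of 7 lower and 1 higher) and -0.46 for neurons (2 of the 3 tested lower). The 1 endothelial marker measured, Cldn5, was at 0.333 and 1.80 in aOPCs and 5.92 and 7.13 in aOLs. The part of these levels in the results below was not tested. The aOPC libraries also differed more from each other (SD of the difference 0.952 over all genes) than the aOL libraries did (0.446).

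In RNA, Mtor and its mTORC1 partner Rptor were higher in both aOL libraries, the mTORC2 subunit Rictor was lower in both, and no member passed the test. The test was limma's, with a call at an unadjusted p under 0.01 and a Benjamini-Hochberg adjusted p under 0.05 over all 11133 genes tested, and it called 0 of 8 members beside 9 of all genes (0.0808%). All 8 members passed the filter on low values. At an unadjusted p under 0.05, 2 of 8 members were higher in aOLs (12.1% of all genes) and 0 were lower (12% of all genes). The libraries of the populations did not overlap for 5 members that were higher in aOLs (31.9% of all genes) and for 2 that were lower (29.9% of all genes). The median difference of the members was 0.44 on the log2 scale, beside 0.02 over all genes tested.

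The kinase gene Mtor was at 11.52 and 11.32 in aOPCs and 12.30 and 11.92 in aOLs. Both aOL libraries were above both aOPC libraries, and the difference of 0.69 ± 0.24 (SE) on the log2 scale, 1.61-fold, had an adjusted p of 0.195 (limma, 2 libraries per population). The paper, which lists a further replicate of each population, reports Mtor among the transcripts upregulated in aOLs. Rptor, the subunit that brings substrates to mTORC1, was at 10.52 and 10.19 in aOPCs and 11.21 and 11.09 in aOLs. It had the largest of the 8 differences, 0.80 ± 0.22 on the log2 scale or 1.74-fold, at an adjusted p of 0.164. Rictor, the scaffold of mTORC2, was at 12.83 and 13.31 in aOPCs and 12.39 and 12.42 in aOLs. It was thus 0.632 times as high in aOLs (log2 difference -0.66 ± 0.25, adjusted p = 0.212), and the 95% interval ran from -1.34 to 0.01.

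Within each library, Rptor stood closer to Rictor in aOLs than in aOPCs. The log2 value of Rptor minus that of Rictor was -2.32 and -3.12 in aOPCs (mean -2.72 ± 0.57, SD, n = 2) and -1.18 and -1.34 in aOLs (-1.26 ± 0.11). The 2 populations lay 0.982 apart at their nearest libraries. They could not overlap here, since Rptor was higher and Rictor lower in both aOL libraries. The same difference for Mtor minus Rptor overlapped, at 1.01 and 1.14 in aOPCs and 1.09 and 0.836 in aOLs. With 2 libraries against 2 an exact permutation test cannot go below 0.333, and no other test of these ratios was made.

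**Figure D1:**
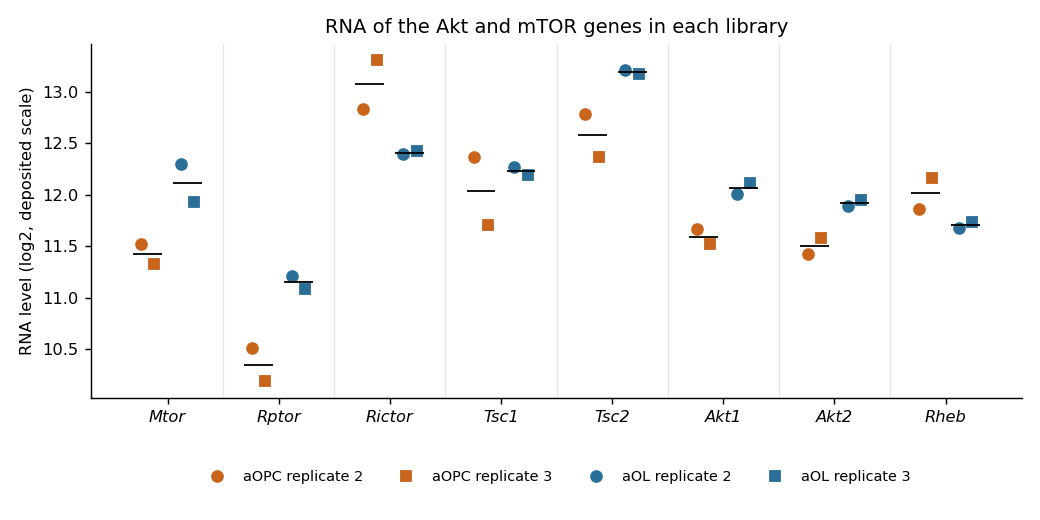
RNA level of each member in each library (y axis, deposited log2 scale), with aOPC libraries in orange and aOL libraries in blue, and a black line at the mean of each population. Mtor, Rptor, Tsc2, Akt1 and Akt2 lie higher in both aOL libraries, Rictor and Rheb lie lower, and Tsc1 overlaps.

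Of the brake on Rheb, the GTPase-activating subunit Tsc2 was at 12.78 and 12.37 in aOPCs and 13.21 and 13.17 in aOLs. Its libraries did not overlap, with a difference of 0.61 ± 0.23 on the log2 scale (adjusted p = 0.218). Tsc1, which stabilizes Tsc2, was at 12.36 and 11.71 in aOPCs and 12.27 and 12.19 in aOLs. The aOPC libraries lay on either side of the aOL libraries, and the 95% interval of the difference of 0.19, from -0.61 to 0.996, spans both directions. Rheb, the direct activator of mTORC1, was at 11.86 and 12.16 in aOPCs and 11.68 and 11.73 in aOLs, a log2 difference of -0.31 ± 0.21 at an adjusted p of 0.417. That difference was -0.45 without aOPC replicate 2 and -0.16 without aOPC replicate 3. The log2 value of Tsc2 minus that of Rheb was 0.919 and 0.211 in aOPCs and 1.53 and 1.44 in aOLs. The populations could not overlap in this difference, since Tsc2 was higher and Rheb lower in both aOL libraries.

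Both Akt kinases were somewhat higher in aOLs. Akt1 was at 11.67 and 11.52 in aOPCs and 12.004 and 12.116 in aOLs, and Akt2 at 11.43 and 11.58 in aOPCs and 11.89 and 11.94 in aOLs. Neither gene overlapped between the populations. The differences were 0.47 ± 0.19 for Akt1 (adjusted p = 0.242) and 0.42 ± 0.19 for Akt2 (adjusted p = 0.271) on the log2 scale. Akt1 minus Akt2 was between -0.061 and 0.240 in all 4 libraries, and the populations overlapped in it.

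The result in RNA depended on aOPC replicate 2. Without it, Rptor (0.96), Rictor (-0.90) and Tsc2 (0.82) passed the test, but so did a large share of all genes. The aOPC library kept there, replicate 3, had a summed level of progenitor markers (9.61) below that of both aOL libraries (10.59 and 10.87). Without aOPC replicate 3 the differences of Rptor, Rictor and Tsc2 were 0.63, -0.43 and 0.41. In each of these fits the lone aOPC library is assumed to vary as the aOL libraries do. Over all alternatives the adjusted p of Rptor ranged from 0.0175 to 0.980, that of Rictor from 0.0165 to 0.980 and that of Tsc2 from 0.0178 to 0.980.

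Levels between genes were compared per kilobase of exon, as the log2 value minus the log2 of the summed length of RefSeq exons. On this scale Rheb was the most abundant member, at 11.26 and 11.55 in aOPCs and 11.07 and 11.13 in aOLs, and Rptor the least, at 7.71 and 7.38 in aOPCs and 8.40 and 8.28 in aOLs. In aOPCs the mean levels per kilobase ran in the order Rheb, Akt1 (10.08), Tsc2 (9.89), Rictor (9.85), Akt2 (9.13), Tsc1 (9.09), Mtor (8.32) and Rptor (7.54). The neighbours Akt1 and Tsc2, Tsc2 and Rictor, and Akt2 and Tsc1 overlapped in their libraries. In aOLs Rictor stood sixth, at a mean of 9.19, between Tsc1 (9.28) and Mtor (9.01). There Akt1 and Tsc2, and Rictor and Mtor, were the neighbours that overlapped. Reads in exons that RefSeq does not hold would change this order. Whether the deposited values were already scaled for length is not known, and the order assumes that they were not. On the deposited scale Rictor (13.07), Tsc2 (12.58) and Tsc1 (12.035) had higher aOPC means than Rheb (12.011).

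The partners of the members in the 2 complexes did not move as one. Deptor, an inhibitor bound to Mtor in both complexes, was at 9.82 and 10.43 in aOPCs and 8.52 and 8.21 in aOLs. Its log2 difference of -1.77 ± 0.30 was the largest among the subunits (limma, adjusted p = 0.127), and it did not pass the test. Mlst8, the subunit shared by both complexes, had a log2 difference of 0.21 ± 0.19 with no overlap of the populations. Akt1s1 (PRAS40), the inhibitor of mTORC1 that Akt phosphorylates, had one of -0.26 ± 0.29 and overlapped. Mapkap1, the Sin1 subunit of mTORC2, was at 12.59 and 10.77 in aOPCs and 11.87 and 11.88 in aOLs, and the gap within aOPCs exceeded that between the populations. The difference was 1.10 without aOPC replicate 2 and -0.71 without aOPC replicate 3, called in opposite directions (adjusted p = 0.0151 and 0.0420). Prr5 had no row in the RNA tables used here.

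Tbc1d7, the third subunit of the complex of Tsc1 and Tsc2, was at 10.83 and 11.05 in aOPCs and 10.23 and 10.28 in aOLs, lower in both, with a log2 difference of -0.68 ± 0.20 (adjusted p = 0.173). Pdpk1, the kinase that activates Akt, had a difference of 0.37 ± 0.35 on the log2 scale and overlapped.

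A wider list of 82 pathway genes was tested in the same fit. RNA was measured and tested for 78 of them, 0 were called, and 11 were higher and 12 lower in aOLs at an unadjusted p under 0.05, beside 12.1% and 12% of all genes. The libraries did not overlap for 30 that were higher and 21 that were lower, beside 31.9% and 29.9% of all genes. The same shares are the background for the counts by role. The median difference was 0.15 on the log2 scale. Among 10 receptors and PI3K subunits 6 were higher in both aOL libraries (31.9% of all genes) and 1 was lower (29.9%), the insulin receptor Insr, at 11.74 and 12.16 in aOPCs and 10.88 and 10.77 in aOLs. Among 20 genes of amino acid sensing 7 were higher and 8 lower without overlap, again beside 31.9% and 29.9%. The Ragulator subunits Lamtor1 to Lamtor5, which hold mTORC1 to the lysosome, had log2 differences of -1.01, -0.85, -0.86, -1.13 and -1.09. Of the Rag GTPases they anchor, Rragd had one of 1.12, and Rraga, Rragb and Rragc had -0.13, 0.22 and 0.16.

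The stress gene Ddit4 (REDD1), which represses mTORC1, was at 13.07 and 11.72 in aOPCs and 10.77 and 10.69 in aOLs. Prkaa2, a catalytic subunit of the energy sensor AMPK, was at 8.86 and 8.54 in aOPCs and 9.79 and 9.75 in aOLs. Neither passed the test (limma, adjusted p = 0.177 and 0.133). Of 16 mTORC1 targets 6 were higher and 5 lower without overlap (31.9% and 29.9% of all genes), and the adaptor Grb10 had the largest difference (-1.30 ± 0.49). Of 8 targets of Akt and mTORC2, 3 were higher and 1 lower without overlap, beside the same shares. Sgk1, a kinase activated by mTORC2, was at 16.98 and 15.60 in aOPCs and 14.77 and 14.04 in aOLs, a log2 difference of -1.88 ± 0.57. Prkca, a protein kinase C that mTORC2 phosphorylates (1.07 ± 0.44), and Tbc1d4, an Akt substrate in glucose uptake (1.20 ± 0.43), were higher in both aOL libraries, without a call. These differences moved with the aOPC library left out, from 0.52 to 1.63 for Prkca, 0.65 to 1.76 for Tbc1d4, -2.58 to -1.19 for Sgk1 and -2.34 to -0.99 for Ddit4, and that of Grb10 from -1.87 to -0.73 with the aOL library left out.

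**Figure D2:**
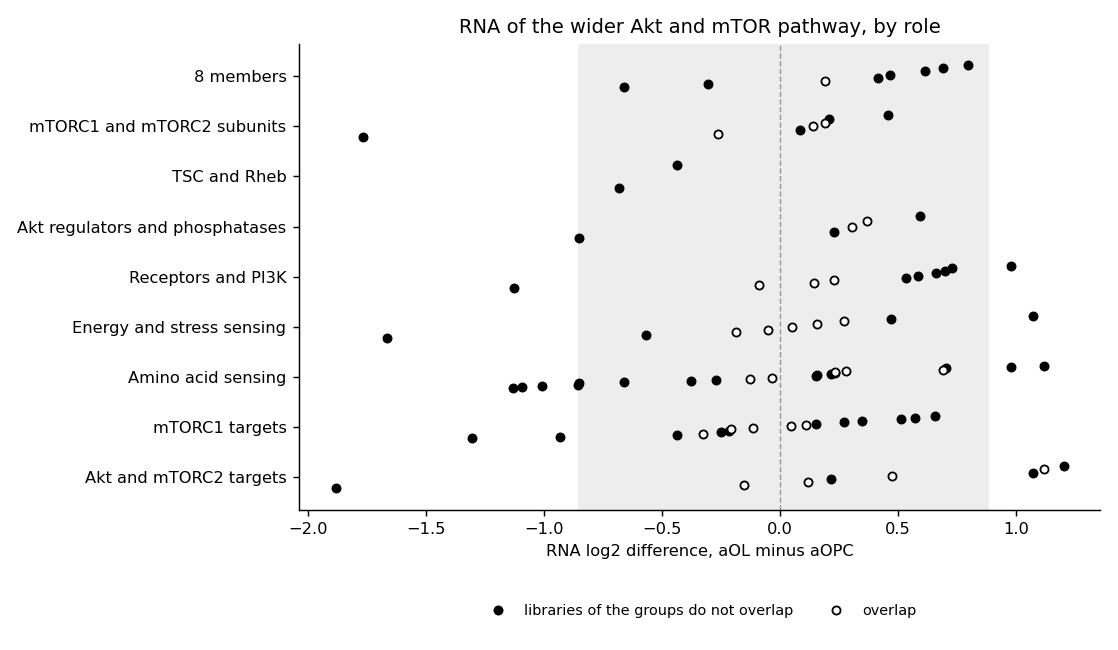
RNA log2 difference, aOL minus aOPC, of tested genes (x axis), by role in the pathway (y axis), for roles with at least 2 tested genes. Filled points are genes whose libraries do not overlap between the populations, open points overlap, and the grey band holds the middle of all genes tested, from the 10th percentile (-0.85) to the 90th (0.88). All 8 members lie inside the band, while Deptor (-1.77), Ddit4 (-1.66) and Sgk1 (-1.88) lie left of it.

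Among the genes of the wider list whose RNA was most like that of Mtor, by the Euclidean distance of log2 values over the 4 libraries after centring, were Pik3r1 (distance 0.211) and Ulk1 (0.301). Pik3r1, the regulatory subunit of PI3K, was at 13.32 and 12.85 in aOPCs and 13.90 and 13.66 in aOLs. Ulk1, the autophagy kinase that mTORC1 inhibits, was at 11.11 and 10.93 in aOPCs and 11.66 and 11.70 in aOLs.

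5hmC was measured by reduced representation hydroxymethylation profiling (RRHP). In this assay a glucosylated 5hmC protects the sequence CCGG from the enzyme MspI, and the reads at a site count the protected copies. A site can be read only where the DNA of the cells holds CCGG, so reads compare 5hmC between the lines only at a CCGG that both carry. The members span from 21064 bases (Akt1) to 296687 bases (Rptor) in the mouse assembly GRCm38 (mm10), and between 57.0% (Mtor) and 84.8% (Akt1) of the CCGG sequences in their spans were read in at least 1 library. Mtor lies on the plus strand at chr4:148448582-148557685 with 58 exons, and Tsc2 on the minus strand at chr17:24595816-24632627 with 40 exons, by their longest RefSeq transcripts. The deposited counts summed over the listed CpG sites came to 7113237 and 17121440 in aOPCs and 15923775 and 27057859 in aOLs, which is not the number of reads sequenced. aOPC replicate 2 has the lowest sum, and 5.74% of its counts lay in CpG islands beside 2.38% to 3.32% in the others.

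The members carried 5hmC in their bodies and little at their promoters. Outside promoters, an average intron site of the members had between 0.912 and 0.978 CPM (reads scaled to the size of the library) in the 4 libraries (353 sites), beside 0.850 to 0.895 over all intron sites. An average exon site had between 0.794 and 1.07 (76 sites), beside 0.940 to 1.06 over all exon sites. An average promoter site of the members had 0.294 CPM in aOPC replicate 2 and between 0.072 and 0.098 in the other 3 libraries (140 sites), beside 0.463 and between 0.217 and 0.262 over all promoter sites. None of the 121 member sites in CpG islands had enough reads for a test of its own.

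Summed over the gene body (sites with an exon or intron entry), Tsc2 had the largest difference in 5hmC of the 8 members and was lower in aOLs, though no member passed the test. The test was edgeR's quasi-likelihood test with a call at an adjusted p under 0.05 over all genes. It called 0 of 8 members in gene bodies (0.849% of 18488 genes) and 0 of 8 in introns (1.05% of 16109 genes). It also called 0 of 8 in exons (0.453% of 14139 genes) and 0 of the 7 that passed the filter in promoters (0.768% of 14579 genes). Akt2 did not pass there, with 6 to 16 reads. In gene bodies 4 members were lower in both aOL libraries (19.3% of all genes) and 0 were higher in both (18.8% of all genes), and the median difference was -0.10 on the log2 scale, beside -0.0027 over all genes.

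The gene body of Tsc2 had 182 and 441 reads in aOPCs and 284 and 484 in aOLs, which is 25.4 and 26.1 CPM against 17.7 and 17.9. The log2 difference was -0.53 ± 0.14 (SE) with an adjusted p of 0.191. In its introns alone it had 21.1 and 21.3 CPM in aOPCs and 12.9 and 12.5 in aOLs, a log2 difference of -0.74 ± 0.14 with a 95% interval from -1.06 to -0.41 and an adjusted p of 0.0607. Its exons overlapped between the populations, at 6.90 and 8.02 CPM in aOPCs and 7.42 and 7.998 in aOLs. The intron difference passed the test without the filter on low sums (adjusted p = 0.0340), with the replicate number as a block (0.0258) and, like the gene body, without either aOPC library. In those last fits the lone aOPC library is assumed to vary as the aOL libraries do, and calls rise over all genes. In introns they rose to 276 higher and 432 lower of 16315 without aOPC replicate 2 and to 1608 and 1848 of 16525 without aOPC replicate 3. In gene bodies they rose to 236 and 373 of 18637 and to 1928 and 2318 of 18790. Summing just the sites with 3 or more reads in all 4 libraries gave -0.35 in introns and -0.26 in the gene body, but this minimum leaves out sites near 0 in aOLs, so the difference had to shrink. Over all alternatives the adjusted p of the Tsc2 introns ranged from 0.000147 to 0.712 and that of its gene body from 0.00841 to 0.9999.

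Mtor had 67.9 and 65.3 CPM in its gene body in aOPCs and 56.4 and 52.2 in aOLs. Both aOL libraries were lower, by a log2 difference of -0.29 ± 0.12 (adjusted p = 0.638). In its introns it had 38.7 and 39.3 CPM in aOPCs and 31.6 and 29.5 in aOLs (log2 difference -0.36 ± 0.12, adjusted p = 0.408). Summing just the sites that had 3 or more reads in all 4 libraries, the intron difference became 0.08, but this minimum leaves out sites at 0 in aOLs by construction. The paper lists Mtor as having a CpG with more hydroxymethylation in aOLs, at its promoter or gene region. That list is by CpG and these sums are by gene, so the directions can differ. Of the 25 sites of Mtor tested here, 5 were higher and 9 lower in both aOL libraries. The edgeR test called 0 of them higher and 3 lower.

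Rptor, the longest of the genes, carried the most reads, with 140.6 and 175.3 CPM in aOPCs and 173.6 and 171.1 in aOLs. The populations overlapped, and the 95% interval of its log2 difference ran from -0.19 to 0.43. Rictor, at 28.9 and 33.7 CPM in aOPCs and 32.5 and 28.3 in aOLs, overlapped too, although its RNA did not. Akt2, at 37.9 and 45.3 CPM in aOPCs and 46.4 and 42.5 in aOLs, and Rheb, at 18.3 and 20.7 in aOPCs and 20.5 and 18.6 in aOLs, also overlapped. Akt1 was at 55.1 and 49.9 CPM in aOPCs and 48.7 and 45.4 in aOLs, and Tsc1 at 19.0 and 19.0 in aOPCs and 16.9 and 17.5 in aOLs. Both were lower in the aOL libraries, by log2 differences of -0.16 ± 0.13 (adjusted p = 0.791) and -0.14 ± 0.15 (adjusted p = 0.820).

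**Figure D3:**
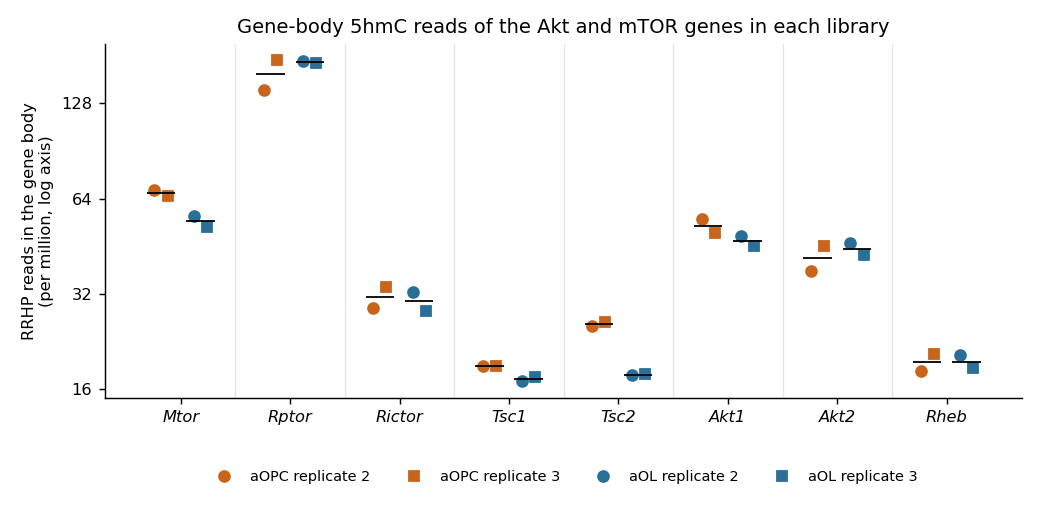
RRHP reads in the gene body of each member in each library (y axis, CPM, log axis), with aOPC libraries in orange, aOL libraries in blue and black lines at the means. Tsc2 (25.4 and 26.1 against 17.7 and 17.9) and Mtor (67.9 and 65.3 against 56.4 and 52.2) stand lower in both aOL libraries, and Rptor is the highest in every library.

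At promoters the members had between 7 and 99 reads per library and gene among the 7 tested. The largest log2 difference was that of Tsc1, with 19 and 15 reads in aOPCs and 7 and 17 in aOLs (-1.02 ± 0.52, adjusted p = 0.884). Mtor had 34 and 25 reads in aOPCs and 18 and 37 in aOLs, or 2.73 and 1.81 CPM against 1.49 and 1.46 after scaling. Of the 7 members 3 were lower in both aOL libraries (17.3% of all promoters) and 1, Rptor, was higher (14.4% of all promoters), with 9 and 13 reads in aOPCs and 12 and 30 in aOLs. The scaling factor of aOPC replicate 2 was 1.75 at promoters. With library totals alone the median of all promoters moved from -0.01 to -0.60 on the log2 scale, and among the members Rptor changed sign (0.40 to -0.06) while the other 6 stayed lower with larger differences (Mtor -0.61 to -1.27).

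Set side by side, Mtor, Tsc2 and Akt1 were higher in RNA and lower in gene-body 5hmC in both aOL libraries. Rictor and Rheb were lower in RNA, and Rptor and Akt2 higher, with overlapping 5hmC, and Tsc1 was lower in 5hmC with overlapping RNA. The submitters took DNA and RNA from the same cells. With no member called in either assay, no relation between the assays was tested.

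**Figure D4:**
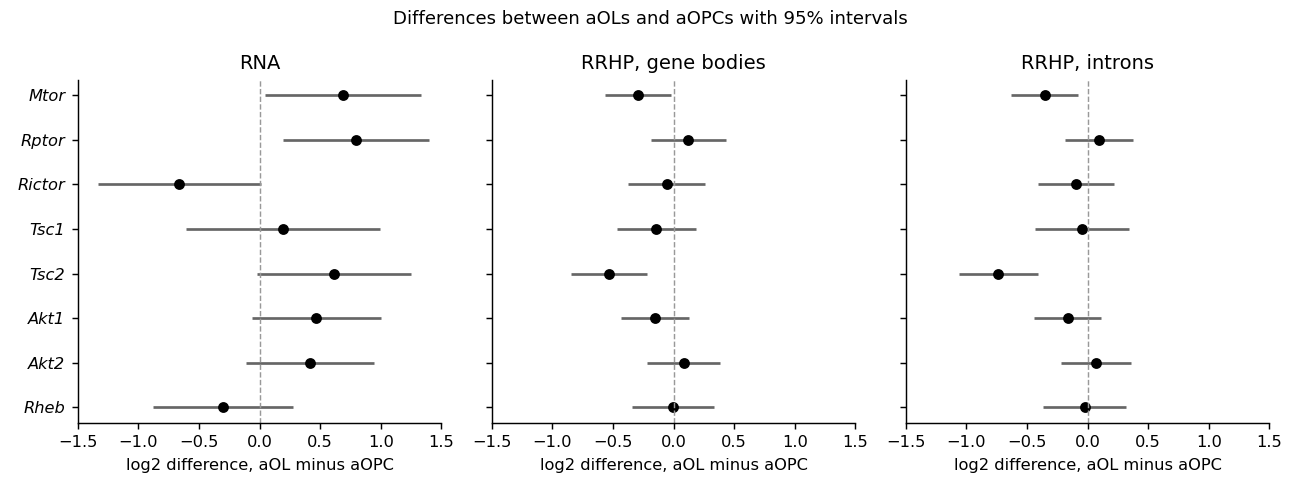
Log2 difference, aOL minus aOPC (x axis), of each member (y axis) in RNA, in RRHP gene bodies and in RRHP introns, with 95% intervals from limma (RNA) and edgeR (RRHP). Tsc2 introns (-0.74) lie farthest from 0 in RRHP, and the RNA intervals are the widest.

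Single sites gave the sharpest differences. Of the 568 sites of the members 170 had at least 10 reads in at least 2 libraries and were tested. A site that is near 0 in one population passes this filter only through the other, so the counts over the tested sites describe those sites and not all 568. edgeR called 6 of the 170, all in introns and all lower in aOLs, beside 1.08% of 443062 tested sites called lower. It called 0 higher, beside 1.21% of all tested sites, and DESeq2 called 0 higher and 5 lower. At an unadjusted p under 0.05, 6 member sites were higher (5.45% of all tested sites) and 12 lower (4.31%). Of the tested sites 39 were lower in both aOL libraries (21.2% of all tested sites) and 30 were higher (20.8%). The 6 calls lie in 2 genes, 3 of the 25 tested sites of Mtor and 3 of the 15 of Tsc2. A minimum of 10 reads in every library left 69 member sites, of which edgeR called 0, but the 6 called sites have 0 to 4 reads per aOL library and could not enter that test.

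The 3 called sites of Mtor lie in intron 28, 43.7 to 46.9 kb from the transcription start, and had reads in both aOPC libraries and none in either aOL library. They are shown with the reference sequence around them (GRCm38, plus strand, 5′ to 3′), with the CCGG that the assay reads in capitals, since these are the bases whose protection is counted.
Mtor site 148492316, chr4:148492295-148492338: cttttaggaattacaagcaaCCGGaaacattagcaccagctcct
Mtor site 148492594, chr4:148492572-148492615: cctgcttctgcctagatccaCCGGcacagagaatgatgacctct
Mtor site 148495456, chr4:148495442-148495471: tctgtgctcacctCCGGctggtgttctcgc

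The site at 148492594 had 27 and 89 reads in aOPCs and 0 and 0 in aOLs. Against a floor of 3 reads per library it was at least 32.5-fold lower in aOLs (edgeR, adjusted p = 1.05e-05). The site at 148492316 had 11 and 28 reads in aOPCs and 0 and 0 in aOLs, at least 11.6-fold lower (adjusted p = 0.00028). The site at 148495456, which the tables also place in an exon of Angptl7, had 18 and 25 reads in aOPCs and 0 and 0 in aOLs, at least 14.9-fold lower (adjusted p = 0.000355). Another site, at 148495541, had 3 and 6 reads in aOPCs and 0 in aOLs, too few for a test. It was named after its values were seen.

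Together these 4 sites cover 3225 bases, with 59 and 148 reads in aOPCs and 0 and 0 in aOLs. The nearest tested sites on either side had reads in all libraries. The one 24.3 kb upstream had 5 and 20 reads in aOPCs and 21 and 29 in aOLs, and the one 7.18 kb downstream had 30 and 36 in aOPCs and 37 and 61 in aOLs. The 3 called sites held 11.5% and 12.9% of the gene-body reads of Mtor in the aOPC libraries. Without them the gene-body difference of Mtor went from -0.29 to -0.11 and the intron difference from -0.36 to -0.02, as leaving out sites chosen for being lower must.

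The called sites of Tsc2 lie in intron 14, 12150 bases from the start, and in intron 25, 26461 and 26462 bases from it. The reference around them is shown on the strand of the gene (minus, 5′ to 3′), with the CCGG in capitals. The 2 sites of intron 25 are the 2 strands of 1 CpG and share a sequence.
Tsc2 site 24620477, chr17:24620456-24620499: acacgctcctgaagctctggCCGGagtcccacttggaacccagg
Tsc2 sites 24606165 and 24606166, chr17:24606144-24606187: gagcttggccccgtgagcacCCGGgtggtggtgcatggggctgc

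The site in intron 14 had 19 and 48 reads in aOPCs and 4 and 0 in aOLs, a ratio of 30.8 between the populations (95% counting interval 11.5 to 116.4, edgeR adjusted p = 0.000926). At the CpG of intron 25 the plus strand had 16 and 21 reads in aOPCs and 1 and 0 in aOLs, a ratio of 68.1 (11.5 to 2760, adjusted p = 0.00112). Its minus strand had 10 and 22 reads in aOPCs and 2 and 0 in aOLs, a ratio of 29.4 (7.51 to 253.5, adjusted p = 0.00355). The aOL reads at these 3 sites were all in aOL replicate 2. Without that library the fitted log2 difference went from -4.82 to -8.59 at 24620477 and from -4.69 to -7.55 at 24606166, and without aOL replicate 3 the site at 24606166 was not called (-3.43, adjusted p = 0.0972). The next CCGG along, read at 24606263 and 24606264, had 11 and 38 reads on the plus strand in aOPCs and 26 and 51 in aOLs, so it had reads in all 4 libraries. The intervals cover counting error only, and reads copied by PCR are not independent molecules.

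The 3 called sites held 24.7% and 20.6% of the gene-body reads of Tsc2 in aOPCs and 2.46% and 0% in aOLs. Without them the gene-body difference went from -0.53 to -0.18 and the intron difference from -0.74 to -0.30, a shrinkage that the choice of these sites fixes. The remaining Tsc2 sites include the one with the most reads, 24606358 in intron 25, which had 30 and 65 reads in aOPCs and 39 and 59 in aOLs (log2 difference -0.88 ± 0.32, adjusted p = 0.294) with the reference sequence that follows.
Tsc2 site 24606358, chr17:24606336-24606379: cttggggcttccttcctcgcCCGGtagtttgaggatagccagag

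Called sites at or near 0 in one population were unevenly spread over the genome, and this touches both genes. In windows of 5 Mb, 10.1% of the 1471 tested sites around Mtor were called with at most 3 reads in either library of the lower population, the 19th highest share of 532 windows, beside a median of 0.550%. The share was 3.22% around Tsc2 (rank 82) and 7.75% around Akt1 (rank 29), and from 0.136% to 1.23% around the other 5 members. Within 250 kb of Mtor 24 such sites were lower and 18 higher in aOLs, and around Tsc2 8 were lower and 13 higher. The sequence of the reporter lines at these sites was not analysed here, so whether 0 reads stands for no 5hmC or for no CCGG in that line was not tested, for the called sites and for the gene-body and intron sums of Mtor and Tsc2 that include them. Population and reporter line cannot be told apart there.

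**Figure D5:**
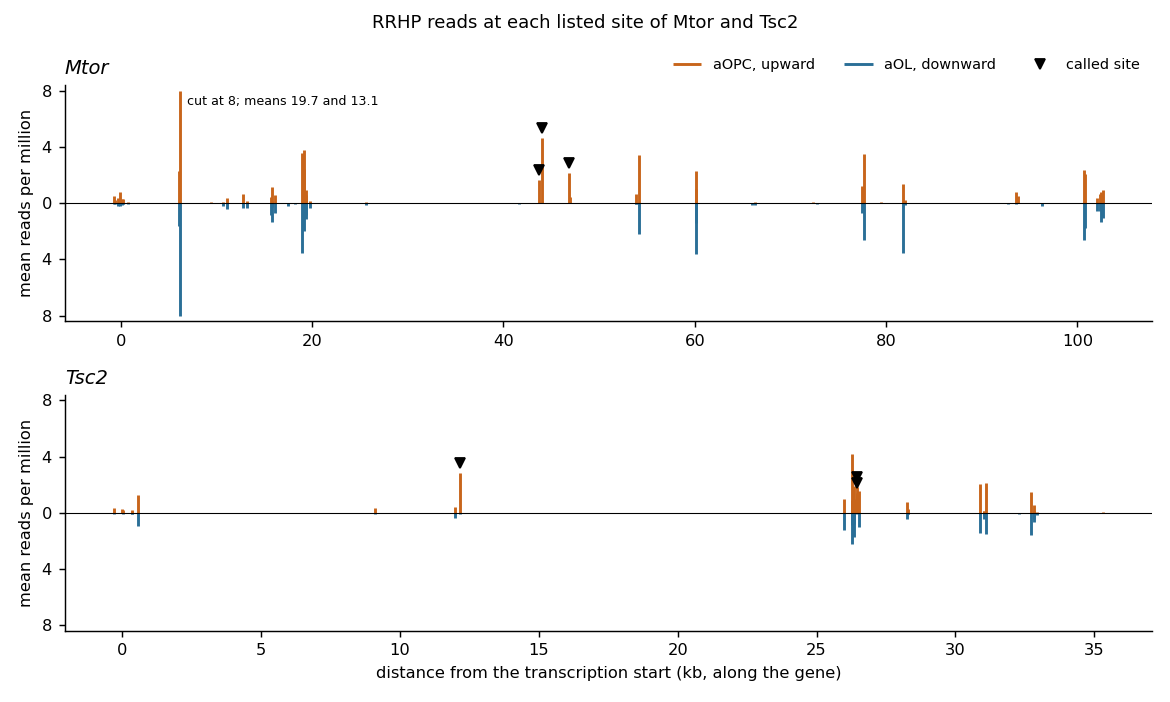
Mean RRHP level (CPM) at each listed site of Mtor and Tsc2 (y axis, aOPCs upward in orange, aOLs downward in blue) against the distance from the transcription start in kb (x axis), with triangles at the called sites. One Mtor site is cut at 8 and its means, 19.7 and 13.1, are written beside it. The called sites of Mtor near 44 kb and 47 kb have no downward bar.

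The sites nearest to a call in the other genes were higher in aOLs. The Akt2 site at 27629846 in intron 6 had 5 and 3 reads in aOPCs and 36 and 48 in aOLs (log2 difference 2.40 ± 0.62, adjusted p = 0.0578), and the Rptor site at 119720057 in intron 3 had 1 and 8 in aOPCs and 26 and 39 in aOLs (2.01 ± 0.56, adjusted p = 0.0943). Their reference sequences (GRCm38, plus strand) are shown because these sites had the lowest p in this direction.
Akt2 site 27629846, chr7:27629824-27629867: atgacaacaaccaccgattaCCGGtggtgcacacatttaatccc
Rptor site 119720057, chr11:119720035-119720078: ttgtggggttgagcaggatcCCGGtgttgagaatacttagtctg

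The other members had no site with an adjusted p under 0.1. The lowest p of Rictor was at 6791609 in coding exon 34, with 27 and 48 reads in aOPCs and 29 and 54 in aOLs (log2 difference -0.84, adjusted p = 0.433). That of Tsc1 was at 28667538 in intron 8, with 8 and 20 reads in aOPCs and 10 and 19 in aOLs (adjusted p = 0.640). That of Akt1 was at 112665102 in intron 2, with 1 and 1 reads in aOPCs and 11 and 10 in aOLs (log2 difference 2.43 ± 0.9998, adjusted p = 0.370), and that of Rheb was at 24810283 in intron 3, with 2 and 8 in aOPCs and 14 and 17 in aOLs (adjusted p = 0.751).

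The site with the most reads of all 8 genes was 148454751 in coding exon 5 of Mtor, with 152 and 272 reads in aOPCs and 226 and 357 in aOLs. Scaled, it had 24.1 and 15.2 CPM in aOPCs and 13.2 and 13.1 in aOLs (log2 difference -0.56 ± 0.27, adjusted p = 0.535).
Mtor site 148454751, chr4:148454736-148454765: agcctcagtggtaCCGGgtgagagatgggt

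The site with the most reads in Rptor, 119727161 in intron 4, had 103 and 176 reads in aOPCs and 133 and 298 in aOLs, and that in Akt2, 27603048 in intron 1, had 67 and 175 in aOPCs and 100 and 196 in aOLs. In Rheb it was 24840572 in intron 1, with 69 and 167 reads in aOPCs and 175 and 254 in aOLs. In Akt1 it was 112662566 in intron 2, with 22 and 137 in aOPCs and 102 and 178 in aOLs, in Rictor 6794480 in coding exon 36, with 14 and 106 in aOPCs and 91 and 118 in aOLs, and in Tsc1 28655987 in intron 2, with 22 and 102 in aOPCs and 88 and 141 in aOLs. None of these 6 sites passed the test (edgeR, adjusted p from 0.413 to 0.978).

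Of the wider list 79 genes were tested in gene bodies and 1 was called, beside 0.849% of all genes. Inpp4b, a phosphatase that removes PI3K products, had 87.5 and 82.6 CPM in aOPCs and 51.4 and 56.8 in aOLs, a log2 difference of -0.65 at an adjusted p of 0.0435, and had no row in the RNA tables used here. The call held with RLE scaling, library totals alone, no filter on sums, DESeq2 and without either aOPC library (adjusted p from 2.35e-06 to 0.0460). It was lost with the replicate block (-0.65, adjusted p = 0.0559), without aOL replicate 2 (-0.57, 0.9999) or 3 (-0.72, 0.340), within the RefSeq span (-0.47, 0.206) and with sites of 3 or more reads in all 4 libraries (-0.45, 0.524). Nprl3, a subunit of the GATOR1 brake on mTORC1, came next, at 13.3 and 15.5 CPM in aOPCs and 7.56 and 7.68 in aOLs (adjusted p = 0.0593). It was named after its values were seen. Among the named partners, Mapkap1 (0.23) was higher in both aOL libraries in gene-body 5hmC and Mlst8 (-0.09) was lower (adjusted p = 0.752 and 0.883). Of the 79 genes 16 were higher (18.8% of all genes) and 10 lower (19.3%) in both aOL libraries, and the median log2 difference was 0.06.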

How the data were processed

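RNA and 5hmC libraries of sorted aOPCs and aOLs were grouped by their titles and reporter labels (2 libraries per population and assay, replicates 2 and 3). The first replicate was not analysed here. The members and gene lists were chosen with earlier results of these data known.

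For RNA, the authors aligned reads to mm10 with BWA, counted them with featureCounts and deposited 1 log2 value per gene and library. These values have nearly the same distribution in every library, and read depth cannot be recovered from them. The submitters' processing notes name DESeq2 (1.2.5). Genes reaching 5 on the log2 scale in 2 or more libraries were tested with limma (3.58.1).

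For RRHP, the authors digested and aligned DNA to mm10 and deposited counts per CpG and strand, with promoter (from 2 kb before to 500 bp after the start), exon, intron and CpG island entries. A site not listed in a library was given 0. Counts were summed per gene and region, scaled by TMM and tested with edgeR (4.0.16, quasi-likelihood, filterByExpr). Single sites needed at least 10 reads in at least 2 libraries. A count of 0 allows up to 3 reads, which is from 0.110 to 0.476 CPM after TMM scaling of the sites, and fold bounds use this floor. Both tests were two-sided with Benjamini-Hochberg adjustment over all features, and were tested on simulated data.

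Gene structures and sequences are RefSeq's for GRCm38.p6. Alternatives were other scalings and filters, DESeq2 (1.42.0), a replicate block and leaving out each library. Added after seeing the data were sites within the RefSeq gene span and sums without the called sites.

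Named were the 8 members, 9 partners, up to 12 other genes of the wider list (called first, then by the largest RNA difference without overlap), the 3 nearest to Mtor, every called site of a member, and each member's site with the lowest p and with the most reads. Some of these genes are not reported here.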

Additional observations from a re-analysis of the deposited data

How the results depend on the processing

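In RNA 0 members were called under every alternative except the leaving out of libraries, where 0 to 3 were. In RRHP 0 to 1 members were called in gene bodies and introns when a library was left out, and 1 in introns with no filter on sums and 1 with the replicate block, Tsc2 each time, and 0 in promoters and exons under every alternative. Beside these introns and the Akt2 site below, the replicate block changed no call of a member. Over all genes it moved the RNA calls from 1 higher and 8 lower to 30 and 97. The deviations of same-numbered libraries had a correlation of -0.0739 in RNA and -0.0964 in RRHP. With 2 libraries per population this cannot show whether the numbers pair the libraries. The same number of sites was unlisted, and so given 0, in both RRHP libraries numbered 2 (238019) and both numbered 3 (111033). Of all genes, RNA calls were 0 without a filter and with a robust prior, 3 higher and 8 lower after a second quantile normalization and 8 and 15 with a trend.

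Of single sites 6 were called, 0 with at least 10 reads in every library (which none of the 6 can meet), 5 to 7 under the other alternatives, and 1 to 11 when a library was left out. Without either aOPC library the 6 sites fell below the read minimum and were not tested, and the calls were of other sites. DESeq2 did not call the Tsc2 site at 24620477 (log2 difference -4.67 against -4.82, adjusted p = 0.329), and the site at 24606166 was lost without aOL replicate 3 (0.0972). The Akt2 site at 27629846 was the 1 called higher with library totals alone, RLE scaling, the replicate block and a minimum of 5 reads.

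Some differences changed sign. In RNA, leaving out a library gave -0.14 to 0.52 for Tsc1, -0.58 to 0.05 for Akt1s1, -0.71 to 1.10 for Mapkap1 (called at both ends) and -0.06 to 0.80 for Pdpk1 (called at the upper end). In gene bodies it gave -0.03 to 0.30 for Rptor, -0.16 to 0.07 for Rictor, -0.03 to 0.24 for Akt2 and -0.09 to 0.10 for Rheb. In promoters it gave -0.53 to 0.57 for Rictor, -0.28 to 0.14 for Tsc2 and -0.41 to 0.31 for Akt1. In exons it gave -0.08 to 0.47 for Rptor, -0.26 to 0.43 for Rictor, -0.07 to 0.22 for Tsc2, -0.51 to 0.33 for Akt2 and -0.98 to 1.41 for Rheb. In introns it gave -0.03 to 0.25 for Rptor, -0.12 to 0.09 for Tsc1, -0.02 to 0.20 for Akt2 and -0.11 to 0.10 for Rheb.

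Library totals alone gave 0.00254 for Rheb in gene bodies, -0.06 for Rptor in promoters, -0.03 for Rictor and -0.00101 for Tsc2 in exons, and 0.01 for Rheb in introns. The replicate block gave 0.01 for Rictor in promoters and 0.03 for Rheb in exons. With at least 3 reads in every library it was -0.20 for Rictor and -0.04 for Tsc2 in exons and 0.08 for Mtor in introns. RLE scaling gave -0.0035 for Rictor in exons, and the RefSeq span 0.000958 for Rheb in gene bodies. All are log2 differences, aOL minus aOPC, and the cause of the changes was not tested. The study gives mapped read counts of the RNA libraries, but the reads behind each log2 value cannot be recovered. Promoter sums rest on few reads.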
